A study of Homo sapiens with 3 samples.

Results

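The genes described here belong to double-strand break repair and the Fanconi anemia pathway. The list names 54 genes in 9 groups by repair pathway. They were followed on every probe set that the table for the array assigns to a single member. Of the 54 genes, 48 were measured in this way, with 122 of the 54675 probe sets of the array, which reports 19775 genes in all. Between 1 and 6 probe sets reported a member, and 13 members had 1 probe set. ATRIP had 3 probe sets and NHEJ1 had 1 probe set, each shared with another gene, and RBBP8, BRCA2, FANCA and FANCD2 had no probe set in the table used here, so that these 6 genes were not analysed.

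SupB15 is a BCR-ABL positive cell line of B-cell precursor acute lymphoblastic leukemia. SupB15-MR cells are multidrug resistant subclones of it, which grew out after mitoxantrone treatment in medium conditioned by the bone marrow stromal cell line HS-5 and were then kept without drug. RNA was measured on 2 arrays of SupB15-MR cells, labelled as biological replicates of which the second is named MR5, and on 1 array of drug sensitive SupB15 cells. Cells of both groups had grown in normal medium (RPMI1640 with FBS). The resistant cells are therefore subclones of 1 line, and the line they are set against has a single array. Values are log2 expression values after RMA, a method that corrects, normalises and summarises the probes of a probe set, and a difference of 1 is 2-fold. A value of one probe set cannot be set against that of another, so that only differences between arrays are read.

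Double-strand breaks are repaired along 2 main routes. In homologous recombination the MRN complex senses the break, its ends are resected, BRCA proteins prepare the single strand and it invades the sister chromatid, while in end joining the ends are held by the Ku proteins and ligated. The Fanconi anemia pathway unhooks crosslinks between the strands and hands the resulting break to recombination. Mitoxantrone, the drug used in selection, is a topoisomerase II poison that leaves double-strand breaks.

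The spread of the measurement comes from the SupB15-MR arrays alone. Over the 122 probe sets these arrays differed by a median of 0.08 and by at most 0.71, and 36 probe sets had the same value in both. Of all 46034 probe sets kept after removal of low values, 39.7% had the same value in both SupB15-MR arrays, which was not explained in the sources used here. A probe set was called when it differed at least 2-fold between the mean of the SupB15-MR arrays and the SupB15 array, with an adjusted p of at most 0.05 in limma. Every one of the 16476 probe sets that differed 2-fold also passed limma, so that the calls rest on the fold change. An exact permutation test of 2 arrays against 1 has 3 assignments and cannot go below p = 0.333. Standard errors of the members on the most intense probe set of each gene were between 0.201 and 0.235. They come mostly from the spread pooled over probe sets. No spread was measured between SupB15 cultures.

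The arrays also differed in ways that reach beyond repair genes. The array medians were 5.27 and 5.28 in SupB15-MR cells and 5.08 in SupB15 cells, a shift of 0.19. The 3' minus 5' difference of the ACTB control probe sets was 2.59 and 2.43 in SupB15-MR cells, against 0.80 in SupB15 cells. The 3 control probe sets for 18S RNA were 6.63 to 7.82 higher in SupB15-MR cells. Of 12 B-cell precursor markers, 3 were called higher and 4 lower, beside 15.8% and 16.3% of all genes. Among the lower ones, the surrogate light chain gene VPREB1 was at 4.22 and 3.94 in SupB15-MR cells and at 10.49 in SupB15 cells. RAG2, among the higher ones, was at 10.52 and 10.45 in SupB15-MR cells and at 7.16 in SupB15 cells. CD79A, not called, was at 10.27 in both SupB15-MR arrays and 10.34 in SupB15. The 6 marrow stroma markers summed to 28.1 and 28.3 (log2) in SupB15-MR cells and to 30.4 in SupB15 cells. None was called higher in SupB15-MR cells and 2 were called lower. The 6 T cell markers summed to 24.8 in each SupB15-MR array and to 28.0 in SupB15, with none called higher and 1 lower. The lower one was CD3E, at 2.81 and 2.90 in SupB15-MR cells and at 5.13 in SupB15 cells. The 5 myeloid markers summed to 25.9 and 24.4 in SupB15-MR cells and to 24.0 in SupB15 cells, with 2 of them called higher and 1 lower. The part of these differences in the results for repair genes was not tested.

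Repair genes moved in both directions in SupB15-MR cells. On the most intense probe set of each gene, 13 of 48 members (27.1%) were called higher and 6 (12.5%) lower, with 29 not called. FANCB of the Fanconi core complex was 13.8-fold higher, and 3.76-fold on the FANCB probe set highest in SupB15. Over all 17544 genes tested, 15.8% were called higher and 16.3% lower. With the prior that limma fits over all probe sets, identical values included, 9 members were called higher (10.6% of all genes) and 1 lower (9.81% of all genes). RAD51C, DMC1, XRCC4, LIG4, NBN, BRIP1, RECQL, DCLRE1A and DCLRE1B lost their calls under that prior, and of the 6 lower members POLQ was still called. The 13 higher members were CHEK1, MRE11, BRAP, RAD51B, RAD51C, RAD52, DMC1, BLM, FANCB, FANCI, XRCC4, LIG4 and TP53BP1. NBN, BRIP1, RECQL, POLQ, DCLRE1A and DCLRE1B were the lower ones. The median difference of the members was 0, as it was for all genes. In both SupB15-MR arrays on their own, 12 members were at least 2-fold higher (14.5% of all genes) and 6 at least 2-fold lower (15.1% of all genes).

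On the level of probe sets, 37 of 122 (30.3%) were called higher and 16 (13.1%) lower, beside 19.6% and 16.2% of all probe sets. The median difference was 0.13 over the probe sets of the members and 0 over all. When each array was centred on its median, 33 member probe sets were higher and 22 lower, and the median difference over member probe sets became -0.07. Centring lowers every difference by the same shift of about 0.19, in members as over the whole array. Centring left 7500 probe sets higher and 9001 lower over the whole array, against 9005 and 7471 in the values as deposited. With the prior fitted over all probe sets, 29 member probe sets were called higher and 5 lower, beside 13.1% and 9.71% of all. Counted by group, the called probe sets of the strand exchange genes (7 of 18), the Fanconi genes (7 of 19) and the chromatin genes (4 of 10) were all higher. End joining had 5 higher and 6 lower among 21, and the RecQ group had 4 of each among 14.

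**Figure D1:**
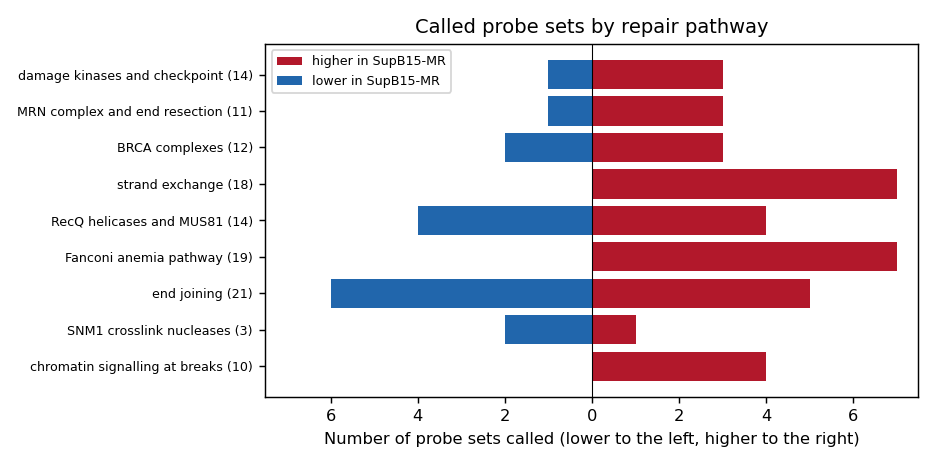
Number of probe sets called higher (right, red) and lower (left, blue) in SupB15-MR cells for each repair pathway, with the number of probe sets measured in brackets. The strand exchange, Fanconi and chromatin groups show bars to the right only, and end joining has 5 higher beside 6 lower. The right bars include a RAD51B, a DMC1 and a RECQL5 probe set that were kept only through the SupB15-MR arrays.

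Promoter sequences are shown for FANCB and TP53BP1, 2 higher members with 3 of 4 probe sets called, and for BRIP1 and POLQ, the 2 members with several probe sets of which all were called lower. Each window runs from 250 bases before to 50 bases after the start of the gene in RefSeq (GRCh38.p14), on the strand of the gene. Capitals mark CCAAT or its reverse complement ATTGG, the box bound by NF-Y, and GGGCGG or its reverse complement CCGCCC, the GC box bound by SP1. No matches overlapped in these windows.
FANCB, chrX:14873020-14873319, minus strand: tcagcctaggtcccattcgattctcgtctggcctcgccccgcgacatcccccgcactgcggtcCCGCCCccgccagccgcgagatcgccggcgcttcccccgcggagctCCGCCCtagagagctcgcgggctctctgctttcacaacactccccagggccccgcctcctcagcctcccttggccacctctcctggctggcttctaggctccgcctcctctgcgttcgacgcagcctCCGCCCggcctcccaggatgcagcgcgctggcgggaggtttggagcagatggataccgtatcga
TP53BP1, chr15:43510591-43510890, minus strand: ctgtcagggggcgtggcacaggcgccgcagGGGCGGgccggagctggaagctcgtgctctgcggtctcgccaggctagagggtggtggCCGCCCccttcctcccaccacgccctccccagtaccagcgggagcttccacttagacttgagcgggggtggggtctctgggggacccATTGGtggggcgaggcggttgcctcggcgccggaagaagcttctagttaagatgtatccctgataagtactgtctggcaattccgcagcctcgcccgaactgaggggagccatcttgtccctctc
BRIP1, chr17:61863479-61863778, minus strand: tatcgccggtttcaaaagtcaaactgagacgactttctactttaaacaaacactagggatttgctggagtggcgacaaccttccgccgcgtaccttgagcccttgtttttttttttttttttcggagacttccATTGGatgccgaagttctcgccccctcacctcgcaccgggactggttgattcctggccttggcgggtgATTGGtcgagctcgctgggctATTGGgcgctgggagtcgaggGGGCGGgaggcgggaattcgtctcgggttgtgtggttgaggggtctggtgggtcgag
POLQ, chr3:121545939-121546238, minus strand: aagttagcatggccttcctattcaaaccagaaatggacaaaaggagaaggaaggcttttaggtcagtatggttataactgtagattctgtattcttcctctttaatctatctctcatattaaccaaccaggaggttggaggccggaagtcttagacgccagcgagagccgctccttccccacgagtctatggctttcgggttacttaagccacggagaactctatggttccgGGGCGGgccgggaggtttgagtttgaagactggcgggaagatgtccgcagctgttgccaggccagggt
FANCB held 3 GC boxes and no CCAAT box, and TP53BP1 held 2 GC boxes and 1 CCAAT box. BRIP1 held 1 GC box and 3 CCAAT boxes, and POLQ held 1 GC box and no CCAAT box. Of the 48 members, 41 had a window in the table. A CCAAT box was found in a window of 7 of 12 higher, 3 of 5 lower and 14 of 24 uncalled members, and a GC box in 9 of 12, 4 of 5 and 20 of 24. In the table as a whole, 34.6% of 35116 windows held a CCAAT box and 45.0% a GC box. Counted by gene among protein coding genes, the shares were 42.1% and 64.3%. A match is a description of the letters and not of a site in use.

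The damage kinases ATM and ATR detect breaks and single-stranded DNA, and CHEK1 and CHEK2 carry their signal to the cell cycle. CHEK1, the kinase that holds cells in S and G2 phase after ATR activation, had 9.95 and 9.91 in SupB15-MR cells, against 8.87 in SupB15 cells. Both SupB15-MR arrays were above SupB15, and the difference was 1.05 (SE 0.201, limma adjusted p = 0.000165). Centred on the array medians it was 0.86 and no longer 2-fold. Another CHEK1 probe set was 1.81 higher, while 2 were at 0 and -0.46. ATM was not called on its most intense probe set (difference -0.64), nor was ATR (-0.83) or CHEK2 (0.19). The probe sets of ATM went both ways. One had 7.44 and 7.61 in SupB15-MR cells, against 5.56 in SupB15 cells, and another had 3.85 and 4.38 in SupB15-MR cells, against 5.67 in SupB15 cells. Of its 6 probe sets, 1 was called higher and 1 lower.

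The MRN complex of MRE11, RAD50 and NBN binds and trims the broken ends and activates ATM. MRE11, its nuclease, had 8.97 and 8.93 in SupB15-MR cells, against 7.77 in SupB15 cells. The difference of 1.18 (adjusted p = 5.26e-05) was 0.98 after centring. Of its other probe sets, 1 was called higher (1.75) and 1 was not called (-0.23). NBN, the subunit that recruits ATM, was lower on its most intense probe set, with 9.23 and 9.37 in SupB15-MR cells and 10.65 in SupB15 cells. On a different probe set NBN was higher, with 9.81 and 9.97 in SupB15-MR cells and 7.75 in SupB15 cells. No single direction can therefore be given for NBN, whose 5 probe sets averaged 0.20 higher. RAD50, the ATPase that tethers the ends, was not called (0.50).

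Of the BRCA proteins, BRCA1 and its partner BARD1 form a ubiquitin ligase that promotes resection, PALB2 links BRCA1 to BRCA2, and BRIP1 is a helicase bound to BRCA1. BRIP1 had 7.48 and 7.32 in SupB15-MR cells, against 8.76 in SupB15 cells (difference -1.36, limma adjusted p = 1.17e-05, and 0.0532 with the prior fitted over all probe sets). Its other probe set was lower as well (-1.24). BRAP, a protein that binds the nuclear localisation signal of BRCA1, went the other way, with 8.24 and 8.25 in SupB15-MR cells and 6.55 in SupB15 cells. It was 3.23-fold higher on this probe set, and 2 of its 3 other probe sets were also called higher, up to 3.01. BRCA1 (-0.50), BARD1 (-0.44) and PALB2 (-0.84) were not called.

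Strand exchange genes act where the resected strand pairs with its template, and RAD52 and the RAD54 proteins among them work on strand annealing and invasion. Of the 9 members in this group, 4 were called higher and none lower, and 7 of their 18 probe sets were higher, beside 15.8% of all genes and 19.6% of all probe sets called higher. The 7 include a RAD51B and a DMC1 probe set that were kept only through the SupB15-MR arrays and add no support. The median difference over the 9 genes was 0.71, with 0 over all genes. RAD51C, a homologous recombination gene, had 9.56 and 9.27 in SupB15-MR cells, against 6.97 in SupB15 cells, or 5.45-fold (difference 2.45, SE 0.21, limma adjusted p = 8.94e-09, and 0.0545 with the prior fitted over all probe sets). Its second probe set was not called (0.72). RAD52, which anneals complementary strands, had 8.66 and 8.68 in SupB15-MR cells, against 6.53 in SupB15 cells. A second RAD52 probe set was 1.69 higher, and 2 others were not called (0.74 and 0.18). RAD51B, whose product binds that of RAD51C, had 6.74 and 6.86 in SupB15-MR cells, against 4.73 in SupB15 cells. Its probe sets ranged from -0.77 to 3.95, with 2 of 4 called higher. The one at 3.95 had a SupB15 value of 3.09, so that it was kept only through the SupB15-MR arrays. DMC1, the recombinase of meiosis, had 6.02 and 6.28 in SupB15-MR cells, against 4.18 in SupB15 cells. Its other probe set was 2.81 higher, but with a SupB15 value of 3.39 it was kept only through the SupB15-MR arrays. RAD54L (0.71) and XRCC2 (0.52) were above SupB15 by less than 2-fold and were not called, and RAD51D, XRCC3 and RAD54B lay between -0.09 and 0.

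**Figure D2:**
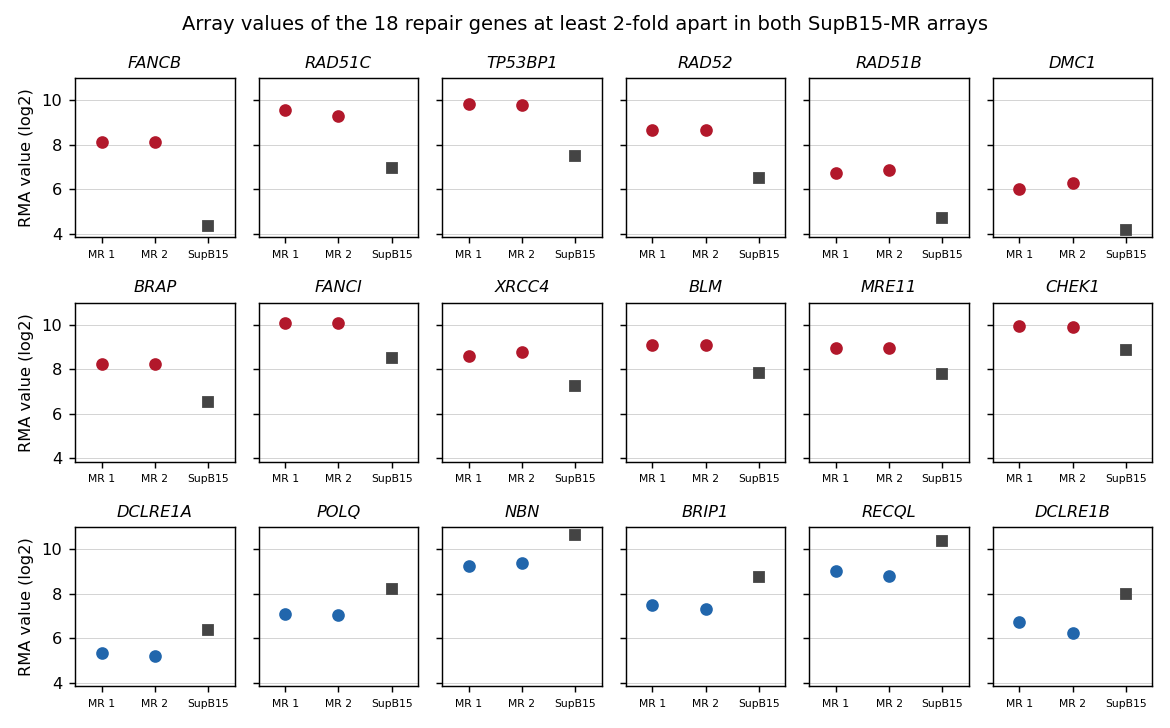
RMA value (log2) of the most intense probe set in SupB15-MR replicates 1 and 2 (circles) and in the SupB15 array (square), for the 12 members at least 2-fold higher (red) and the 6 at least 2-fold lower (blue) in both SupB15-MR arrays. In each panel the SupB15-MR arrays lie close together and on 1 side of SupB15; levels are not compared between panels.

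RecQ helicases unwind recombination intermediates, and MUS81 is a nuclease that cuts them. BLM, the helicase that dissolves double Holliday junctions, had 9.08 in each SupB15-MR array, against 7.84 in SupB15 cells, a 2.35-fold difference (adjusted p = 3.03e-05). RECQL went the other way, with 9.01 and 8.81 in SupB15-MR cells and 10.38 in SupB15 cells. One more RECQL probe set was lower (-1.51), and the remaining 2 were at -0.84 and 0.27. RECQL5 was at a difference of 0 on its most intense probe set and split on the others. One had 4.96 in each SupB15-MR array and 7.39 in SupB15 cells, whereas another had 5.38 and 5.40 in SupB15-MR cells and 3.80 in SupB15 cells. In all, 3 of the 5 RECQL5 probe sets were called higher and 1 lower, and a higher one had a SupB15 value of only 2.60. RECQL4 was not called on its most intense probe set (-0.45), but its other one was lower (-2.56). WRN (-0.29) and MUS81 (0.54) were not called.

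In the Fanconi anemia pathway a core complex (FANCB, FANCC, FANCE, FANCF, FANCG and the ligase FANCL among others) is anchored to DNA by FANCM and ubiquitinates FANCD2 and FANCI. Of 8 genes measured, FANCB and FANCI were called higher and none lower, where 15.8% of all genes were called higher and 16.3% lower. FANCB had 8.14 and 8.13 in SupB15-MR cells, against 4.35 in SupB15 cells. This difference of 3.78 (SE 0.201, adjusted p = 1.29e-11) was the largest of the members on their most intense probe sets. Of the other 3 FANCB probe sets, 2 were higher, by 1.91 and 2.12, and 1 was not called (0.60). FANCI had 10.05 in each SupB15-MR array, against 8.51 in SupB15 cells, and its other probe sets were at 2.32 and, not called, 0.56. The FANCI probe set with the highest SupB15 value is the uncalled one. On its most intense probe set FANCM was at -0.06 and not called, but 2 more FANCM probe sets were higher, by 3.91 and 1.33. FANCC, FANCE, FANCF, FANCG and FANCL lay between -0.63 and 0.64 and were not called.

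In end joining XRCC5 and XRCC6 (Ku80 and Ku70) cap the ends and call PRKDC, DCLRE1C (Artemis) opens hairpins, XRCC4 and LIG4 seal, and POLQ drives the alternative route by microhomology. XRCC4 had 8.60 and 8.79 in SupB15-MR cells, against 7.24 in SupB15 cells (1.45, limma adjusted p = 5.69e-06, and 0.0605 with the prior fitted over all probe sets), and 3 of its 4 probe sets were called higher. On the XRCC4 probe set that was highest in SupB15 the difference was -0.23. LIG4 was called at 1.21, but the difference was 0.93 in replicate 1 alone and 1.49 in replicate 2. The other LIG4 probe set, which was highest in SupB15, was not called (-0.17). POLQ had 7.10 and 7.06 in SupB15-MR cells, against 8.19 in SupB15 cells, and its other probe set was lower (-2.27). The Ku genes were not called on their most intense probe sets, with XRCC5 at 0 and XRCC6 at -0.52, although a less intense probe set was lower for each (-1.56 for XRCC5 and -2.00 for XRCC6). PRKDC was not called (0.07). DCLRE1C was split, with 7.85 in each SupB15-MR array and 8.95 in SupB15 cells on one probe set, and 5.24 in each SupB15-MR array and 3.97 in SupB15 cells on another. It was not called on its most intense probe set (-0.61), and of its 5 probe sets 2 were called lower and 1 higher.

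The SNM1 nucleases digest DNA past a crosslink, and both members were called lower, where 16.3% of all genes were. DCLRE1A, which has 1 probe set, had 5.35 and 5.21 in SupB15-MR cells, against 6.36 in SupB15 cells. DCLRE1B (Apollo), which also trims telomere ends, had 6.72 and 6.24 in SupB15-MR cells, against 8.00 in SupB15 cells. The second DCLRE1B probe set was higher, with 7.83 and 7.88 in SupB15-MR cells and 6.49 in SupB15 cells, so that the direction of DCLRE1B depends on the probe set read.

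At the chromatin around a break MDC1 reads the phosphorylated histone, RNF8 and RNF168 add ubiquitin, and TP53BP1 (53BP1) binds that mark and restrains resection. TP53BP1 had 9.82 and 9.79 in SupB15-MR cells, against 7.49 in SupB15 cells, or 4.97-fold (2.31, adjusted p = 1.1e-08). A further 2 of its probe sets were 2.00 and 2.82 higher, and the remaining one was not called (0.18). RNF168 was not called on its most intense probe set (-0.12). Its other probe set was 4.69 higher, the largest difference of any member probe set. RNF8 (0.82) and MDC1 (-0.87) were not called.

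**Figure D3:**
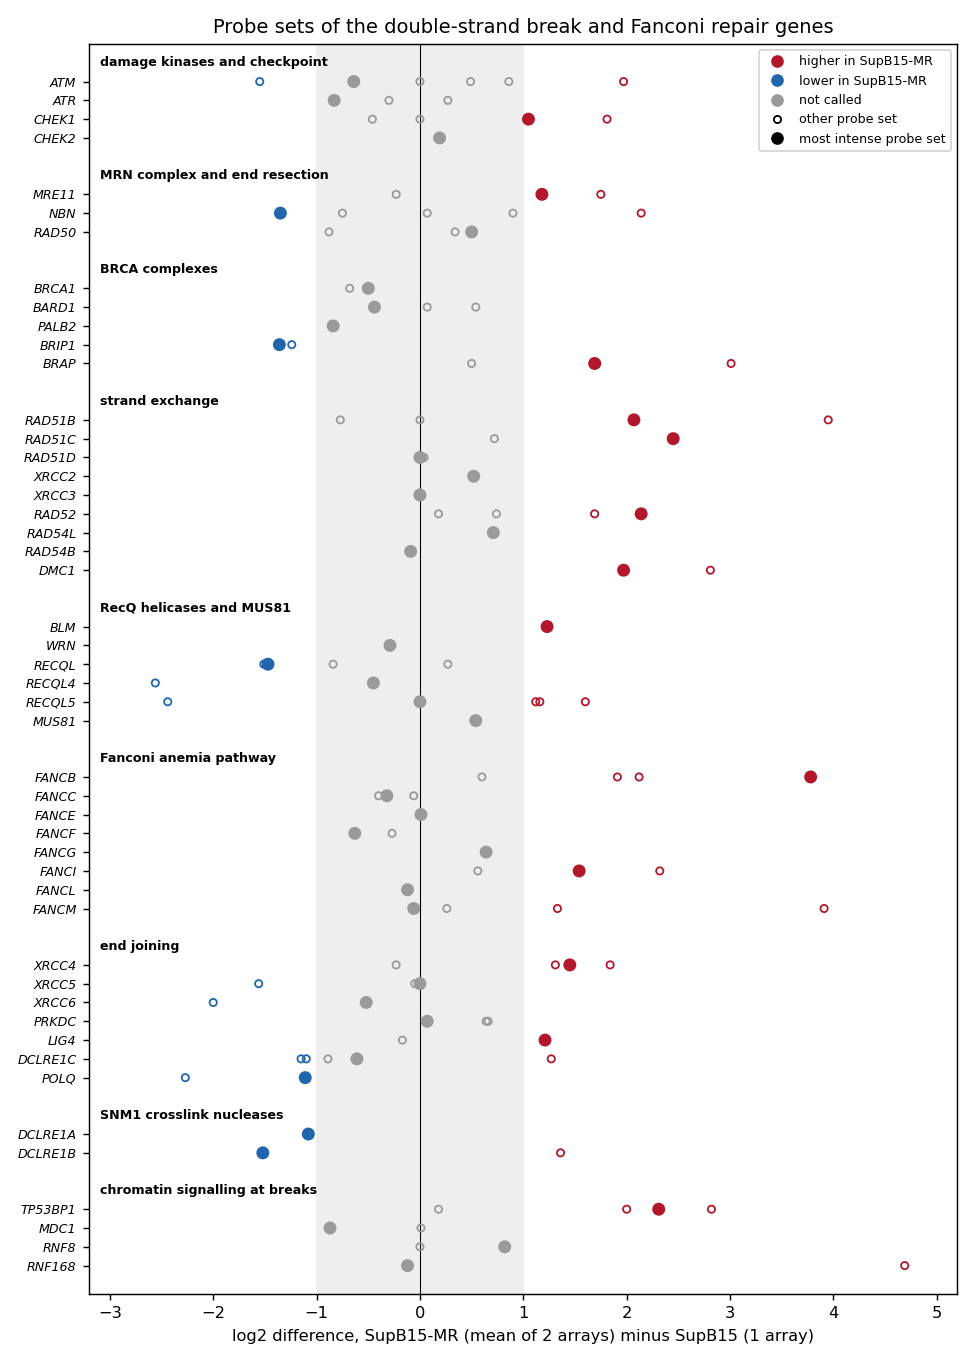
Log2 difference, SupB15-MR (mean of 2 arrays) minus SupB15 (1 array), of each of the 122 probe sets by member gene and repair pathway. Filled points are the most intense probe set of a gene and open points its other probe sets; red is called higher, blue called lower and grey not called, and the shaded band is less than 2-fold, with ATM, NBN, RECQL5, DCLRE1C and DCLRE1B showing calls on both sides.

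The probe sets of 1 gene did not always agree, in members as in other genes. Of 35 members with several probe sets, ATM, NBN, RECQL5, DCLRE1C and DCLRE1B had calls in both directions (14.3%), as did 10.8% of all genes with several probe sets. At least 1 probe set was called higher in 19 of the 35 (54.3%, beside 42.5% of all such genes) and lower in 11 (31.4%, beside 34.2%). DMC1 alone was called higher on all of its probe sets (2.86%, beside 3.76% of all such genes), and BRIP1 and POLQ were called lower on all of theirs (5.71%, beside 3.74%). The DMC1 probe set with a SupB15 value of 3.39 was kept only through the SupB15-MR arrays, so that it adds no support for DMC1. In 21 of the 48 members no probe set was called, a share that was not counted over all genes. Probe sets ending in _x_at or _s_at can bind transcripts of other genes or several transcripts of 1 gene, and 49 of the 122 were of these kinds. They held 16 of the 37 higher and 4 of the 16 lower calls, and their share of the calls over the whole array was not counted. The places of the probes along the transcripts were not used here, and the part of the 3' shift of the ACTB controls in these splits was not tested.

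Higher calls were found most often where SupB15 had a low value. At or below 5.22 in SupB15, the median of all values, lay 26 member probe sets, of which 17 were called higher (65.4%) and none lower. Among all probe sets in this range 25.0% were called higher and 4.66% lower. Above 5.22 lay 96 member probe sets, with 20 higher (20.8%) and 16 lower (16.7%), beside 15.4% and 25.1% of all probe sets there. In 3 of the 17, which belong to RAD51B, DMC1 and RECQL5, the SupB15 value was at or below 3.47, the value used to remove low probe sets, so that they were kept only through the SupB15-MR arrays. The range was set by the SupB15 value, which also enters the difference, so that these shares are a description. FANCB, RAD51B and DMC1 were the higher members whose most intense probe set was in the low range.

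**Figure D4:**
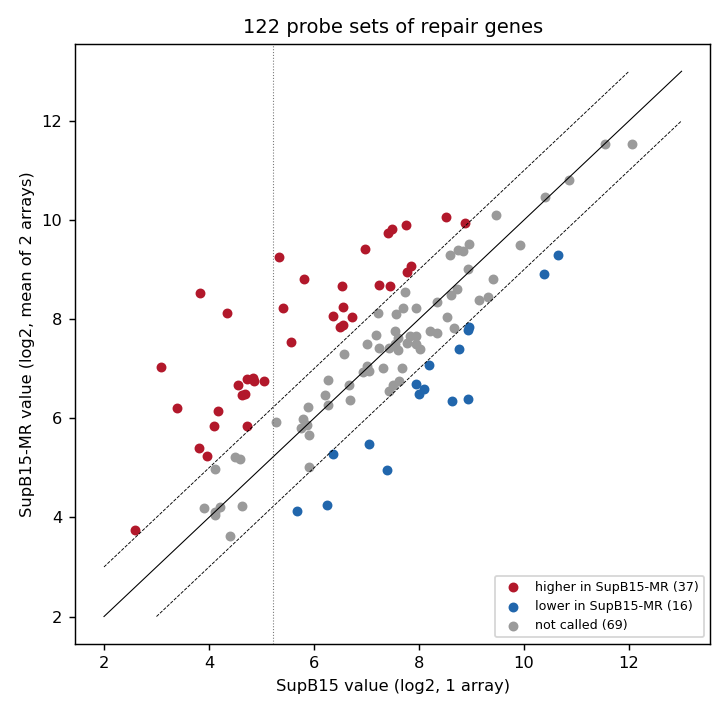
SupB15-MR value (log2, mean of 2 arrays) against SupB15 value (log2, 1 array) of the 122 member probe sets, with the line of equality, dashed lines at 2-fold and a dotted line at 5.22. Left of the dotted line 17 of 26 points are called higher (red) and none lower (blue); the lower calls lie to its right.

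The study's own list of DNA repair genes holds 12 of these probe sets, 1 for each of 12 members. The use of this list was decided after the values had been seen, and it is given as a description. In SupB15-MR cells 8 of the 12 were called higher and 2 lower, with a median difference of 1.51, where 19.6% of all probe sets were called higher and 16.2% lower. The same genes have 22 other probe sets in 11 of the members, and of these 7 were called higher and 2 lower, with a median of 0.24. The listed probe set had the highest difference of its gene in 6 of 11 members, and it was the most intense one in 4 of 12. RAD51B was listed with the probe set at 3.95, which was kept only through the SupB15-MR arrays, and XRCC6 with the one at -2.00.

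A second list of 65 other double-strand break repair genes, such as RPA subunits, resection nucleases and ubiquitin readers, had 61 genes with a probe set of their own. Of these 10 were called higher, 12 lower and 39 were not called, where 15.8% of all genes were called higher and 16.3% lower. The median difference was 0, as it was for all genes. TOP3A, the topoisomerase that works with BLM, had 8.96 and 9.02 in SupB15-MR cells, against 6.59 in SupB15 cells. SEM1, the small partner of BRCA2, had 10.71 and 10.68 in SupB15-MR cells, against 8.30 in SupB15 cells. BRCC3, the deubiquitinase of the BRCA1-A complex, was 2.38 higher on its most intense probe set but averaged 0.08 over 4 probe sets. RFWD3, a ubiquitin ligase of the Fanconi pathway, was 1.98 higher. REV3L, the catalytic subunit of the translesion polymerase zeta, had 5.75 in each SupB15-MR array, against 9.65 in SupB15 cells, the lowest difference of the list (-3.90). WDR48, which activates the deubiquitinase of FANCD2, was lower (-2.31, but -0.83 when its 4 probe sets were averaged), as were BABAM2 of the BRCA1-A complex (-1.77) and ERCC4, the nuclease XPF that incises at crosslinks (-1.57).

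Many repair genes are transcribed in S phase, and 16 S phase and proliferation genes were read beside them. Of these 3 were called higher and 2 lower, beside 15.8% and 16.3% of all genes. Their median difference was -0.10, and their summed log2 levels were 165 and 166 in SupB15-MR cells and 164 in SupB15 cells. Their part in the results for repair genes was not tested.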

How the data were processed

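Total RNA of 2 SupB15-MR samples and 1 SupB15 sample was amplified and labelled by the authors (NuGEN Ovation) and hybridised to Affymetrix HG-U133 Plus 2.0 arrays. The deposited values are log2 expression values after RMA by the authors, 1 for each of 54675 probe sets. Depth does not apply to arrays, and precision is limited by having 3 of them. All columns of values were used. The platform's annotation gave 1 gene to 41097 probe sets, several to 1801 and none to 11777.

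Low values were filtered out by dropping 8641 probe sets that did not exceed 3.47, the 20th percentile of the values, in any array. SupB15-MR arrays were compared with the SupB15 array in limma 3.58.1 (R 4.3.3). The variance prior (SD 0.169, 17.1 degrees of freedom) was estimated on probe sets that differed between the SupB15-MR arrays, because identical values have no spread, and was applied to all. Benjamini-Hochberg adjustment ran over all 46034 kept probe sets. The most intense probe set of a gene has the highest mean of both group means. Array values were given for members called and 2-fold apart in both SupB15-MR arrays, or with such probe sets in opposite directions; other array values and the study's list were chosen after values were seen. Members and lists were chosen with earlier results of these data known. The labels call the SupB15-MR arrays biological replicates and the study describes SupB15-MR clones; p-values measure the spread between these arrays and none between SupB15 cultures. Promoters are from RefSeq (GRCh38.p14).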

Additional observations from a re-analysis of the deposited data

How the results depend on the processing

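With 2 arrays against 1, the calls rest on the fold change. No paired analysis was possible because the SupB15 group has 1 array with no replicate number. With the ordinary limma prior (SD 0.00102), 4470 probe sets were lower over the whole array, 5 of them of members, and 1 member gene was lower; NBN, BRIP1, RAD51C, DMC1, RECQL, XRCC4, DCLRE1A and DCLRE1B lost their calls, with adjusted p from 0.0507 to 0.145, and so did LIG4. A 1-way ANOVA could be fitted to 27745 probe sets that differed between the SupB15-MR arrays and called 0 in each direction over the array, among member probe sets and among member genes, while 6778 of the probe sets passed 2-fold at an unadjusted p of at most 0.05. At 4-fold or more, 3430 probe sets were higher and 2484 lower, with 14 and 4 of members, and 5 member genes were higher and 0 lower. The share over all genes was not counted at 4-fold, so that these gene counts are a description. Without probe sets ending in _x_at or _s_at, which are fewer by construction, 21 member probe sets were higher. The median difference over member probe sets, 0.13, became 0.07 without these probe sets and was 0.13 to 0.18 when either SupB15-MR array was left out. It reversed to -0.07 when the arrays were centred on their medians, since SupB15-MR medians were 0.19 higher. That shift comes off the differences of all probe sets alike. CHEK1 and MRE11 lost 2-fold with centring (0.86 and 0.98). The mean over all probe sets of the gene reversed NBN (0.20) and took CHEK1 (0.60), MRE11 (0.90), RECQL (-0.89) and DCLRE1B (-0.08) under 2-fold. The probe set highest in SupB15 turned XRCC4 to -0.23, ended the call of FANCI (0.56) and called RECQL5, at 0 as reported, lower (-2.44), and the highest mean over all 3 arrays reversed DCLRE1B (1.36). Without either SupB15-MR array the 21 named members kept direction and side of the threshold on the same probe sets. LIG4, a called member that is not among the 21, fell under 2-fold without replicate 2 (0.93).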
